A study of Mus musculus with 12 samples.

Results

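The genes described here are named for proteins of the cytosolic ribosome of the mouse. Members were taken by gene symbol (Rps and Rpl with a number and at most a short suffix, Rplp0 to Rplp2, and Rpsa), which gave 84 of the 24478 genes listed. Of these, 32 carry names of the small subunit and 52 names of the large subunit. Where a gene had several transcript rows, the row with the most reads over all 12 libraries was used. In the edgeR fit 78 members were tested. The other 6 (Rpl10l, Rpl36a, Rpl39l, Rps13, Rps28 and Rps29) fell under its filter on low counts.

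A cytosolic ribosome joins a small subunit, which reads the messenger RNA, to a large subunit, which forms the peptide bond. Each subunit is a scaffold of ribosomal RNA that carries many different proteins, nearly all of them made in matched amounts in dividing cells. Most of their messenger RNAs begin with a run of pyrimidines, the TOP motif, through which growth signals set their translation. MYC is a transcription factor known to raise ribosome production, and the lymphocyte precursors of the thymus are among the cells it can transform.

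Poly(A) RNA was sequenced from thymic tissue in 4 groups of 3 libraries. The controls expressed endogenous MYC only. The T58A thymic lymphomas expressed, per the labels, ectopic MYCT58A only, and the S62A thymic lymphomas ectopic MYCS62A only. The S62A splenomegaly masses were thymic tissue labelled with both ectopic MYCS62A and endogenous MYC. T58A and S62A replace by alanine the threonine and the serine whose phosphorylation sets how long MYC lasts. The masses are labelled T and B lymphocytes and the other groups T lymphocytes. The promoter that drives the ectopic gene, and the strain and age of the mice, are not known from the labels. All 6 S62A lymphoma and splenomegaly libraries carry the letter I in their titles, the T58A lymphomas H, and the controls G in controls 1 and 2 and H in control 3, so for S62A the letter and the group cannot be told apart. Whether each library is a separate animal is not stated, and p-values therefore describe how much these libraries scatter, in part perhaps for technical reasons.

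Depth was 9577373 to 22437969 reads over genes, lowest in splenomegaly mass 2. Myc rose in both lymphomas, from 82.8 ± 2.82 CPM (a count scaled to the depth of its library; SD, n = 3) in the controls to 143 ± 13.4 CPM with T58A and 173 ± 26.1 CPM with S62A, and was at 91.9 ± 7.89 CPM in the splenomegaly masses. Per the labels the groups express different Myc genes, and how reads of the ectopic gene were counted is not stated. The levels of cell type markers differed between the groups. The summed level of 10 pan T cell markers was 9158 to 9296 CPM in controls, 2496 to 4308 CPM in the lymphomas and 915 to 1035 CPM in the splenomegaly masses. For 10 B cell markers it was 83.2 to 87.5 CPM in controls and 2033 to 2700 CPM in the masses. In T58A lymphomas it was 281, 437 and 37.2 CPM, and in S62A lymphomas 30.5 to 48.8 CPM. The 10 markers of double-positive thymocytes summed to 9860 to 11220 CPM in controls, 2827 to 4865 CPM in the lymphomas and 334 to 370 CPM in the masses. Ptcra was at 0 reads in all T58A lymphomas. Thymic epithelium markers summed to 2307 to 2527 CPM in controls and at most 201 CPM elsewhere, and macrophage markers to 454 to 529 CPM in controls and 1432 to 6410 CPM elsewhere. Fibroblast markers spanned 230 to 276 CPM in controls and 221 to 1622 CPM elsewhere. The part of these shifts in the results that follow was not tested, and in bulk tissue fewer cells of a type and less RNA per cell cannot be told apart.

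The start of a member gene is shown here for 11 members because the TOP motif lies there and because these members did not move alike. Each line holds 30 bases around the annotated RefSeq start (15 on each side, build GRCm38.p6, on the strand of the gene), and capitals mark a pyrimidine run, defined as a C no more than 5 bases from the start followed by at least 4 more C or T. The first 7 genes were higher in at least 1 lymphoma group than in the controls, and the last 4 in neither.
Rpl13, chr8:123102335-123102364, plus strand: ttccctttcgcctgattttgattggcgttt
Rpl14, chr9:120571502-120571531, plus strand: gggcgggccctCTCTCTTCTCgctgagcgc
Rps18, chr17:33955651-33955680, minus strand: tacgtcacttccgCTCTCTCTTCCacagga
Rps24, chr14:24490663-24490692, plus strand: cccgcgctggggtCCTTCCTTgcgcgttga
Rpl22l1, chr3:28805493-28805522, plus strand: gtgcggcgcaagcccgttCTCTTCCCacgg
Rpl15, chr14:18270972-18271001, minus strand: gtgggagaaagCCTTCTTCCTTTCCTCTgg
Rps15a, chr7:118116133-118116162, minus strand: ctctctttctgccatCTTCCCTCgccggtg
Rpl18, chr7:45718056-45718085, plus strand: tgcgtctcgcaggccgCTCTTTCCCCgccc
Rps9, chr7:3704026-3704055, plus strand: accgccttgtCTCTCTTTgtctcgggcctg
Rps21, chr2:180257364-180257393, plus strand: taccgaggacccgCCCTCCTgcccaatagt
Rplp2, chr7:141447636-141447665, plus strand: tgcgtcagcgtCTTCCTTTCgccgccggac

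A run by this definition stood in 29 of the 63 members with a promoter in the RefSeq table, or 46.03%, against 18.46% of all 27025 promoters there. Of the 31 such members that rose in both lymphomas 13 had one, and of the other 27 that were tested 16 had one. Over the 300 bases from 250 before to 50 after the start, on both strands, CACGTG (the E-box core that MYC with MAX can bind) stood in 5 of the 63 members, or 7.94%, against 7.24% of all promoters. CCGGAAG, a core bound by ETS family factors, stood in 24 of the 63, or 38.1%, against 9.12%. The 3 motifs share no required bases with each other except that a pyrimidine run can cover part of the reverse complement of CCGGAAG. Among members that rose in both lymphomas CACGTG stood in 3 and CCGGAAG in 11, and among the other tested ones in 2 and 12. These are matches of letters in a window.

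Ribosomal protein genes took up more of the RNA in every lymphoma library than in any control. They held 1.31% ± 0.0704 (SD, n = 3) of the reads in controls, 2.31% ± 0.14 in T58A lymphomas and 2.19% ± 0.0679 in S62A lymphomas. The splenomegaly masses lay between, at 1.62% ± 0.0746. Control libraries ran from 1.24% to 1.38%, the masses from 1.54% to 1.69% and all 6 lymphomas from 2.13% to 2.47%, so these 3 ranges did not overlap, whereas those of the lymphoma types did. Counted per transcript length, as a share of the summed FPKM (reads per kilobase of transcript, scaled by depth) the authors deposited, the values were 4.53% ± 0.252, 7.44% ± 0.345, 7.26% ± 0.125 and 4.80% ± 0.0858. On that scale the masses (4.72% to 4.89%) overlapped the controls (4.25% to 4.75%). The 10 most abundant genes held 5.77% to 7.45% of reads in the masses and 2.69% to 4.76% in the other libraries.

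**Figure D1:**
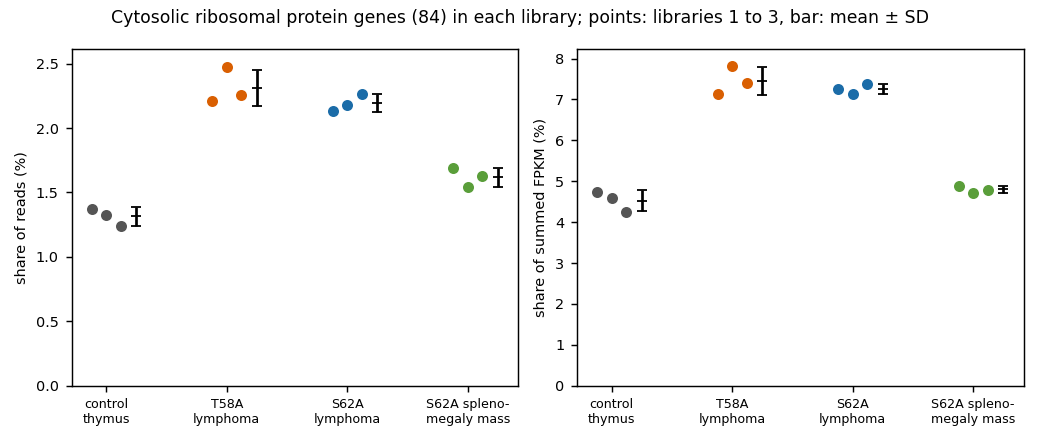
Share of reads (left, %) and of summed FPKM (right, %) held by the 84 ribosomal protein genes in each library, with group mean ± SD. All 6 lymphoma libraries lie above 2.1% of reads, the splenomegaly masses near 1.6% and the controls near 1.3%, while on the FPKM scale masses and controls overlap.

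Against controls, 43 of the 78 tested members were higher in T58A lymphomas and 1 was lower (edgeR quasi-likelihood test, Benjamini-Hochberg adjusted p under 0.05), where 18.8% of all 15606 tested genes were called higher and 17.4% lower. In S62A lymphomas 50 were higher and 1 lower, against 21.9% and 22.2% of all genes. In the splenomegaly masses 27 were higher and 2 lower, against 22.9% and 26.3%. The median log2 fold change of the members was 0.87, 1.02 and 0.38 in that order, and that of all tested genes 0.01, 0.00 and -0.08. These comparisons share the same 3 controls. Scaling by library size alone moved the median of all genes in the masses to -0.19 and gave 22 higher and 4 lower members there, against 20.2% and 30.3% of all genes.

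Genes of both subunits were among those called higher. In T58A lymphomas 18 of 29 tested small-subunit genes and 25 of 49 large-subunit genes were higher, in S62A lymphomas 20 and 30, and in the masses 12 and 15. The shares were 62.1%, 69.0% and 41.4% for the small subunit and 51.0%, 61.2% and 30.6% for the large. Of all genes 18.8%, 21.9% and 22.9% were higher. Every T58A lymphoma library lay above every control in 53 members, where 28.8% of all genes showed this, and every S62A lymphoma library in 59 members, where 28.0% did. In the masses this held for 31 members, against 32.0% of all genes. With 1 library left out in turn, 32 to 45 members were called higher with T58A, 38 to 47 with S62A and 18 to 26 in the masses. These were 41.0% to 57.7%, 48.7% to 60.3% and 23.1% to 33.3% of the members. Of all genes, the same fits called 12.4% to 16.2%, 15.2% to 19.9% and 16.9% to 21.0% higher. Without control 3 the masses gave 23.1% of the members and 17.9% of all genes. Within the title letter H, control 3 alone against the T58A lymphomas left 5 members called, with Rpl13, Rpl22l1, Rpl23 and Rpl32 among them, and gave a median log2 fold change of 0.98 over the 77 members. With 1 control, that fit called 6.49% of the members and 1.11% of all genes higher, and 0 members and 1.49% of all genes lower.

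The counts differed between abundant and scarce members. Over all libraries 48 members averaged at least 20 CPM, and among these 36 were higher with T58A, 40 with S62A and 24 in the masses. The 36 members below 20 CPM, of which 30 were tested, gave 7, 10 and 3. These were 23.3% of the tested ones with T58A and 33.3% with S62A, against 18.8% and 21.9% of all genes. In the masses, 3 of 30 was a smaller share than the 22.9% of all genes called higher there. In all 3 comparisons the share of the abundant members was larger than that of all genes. The abundant members also varied less among themselves, with an SD across genes of the T58A log2 fold change of 0.45 against 1.18 for the scarce ones.

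**Figure D2:**
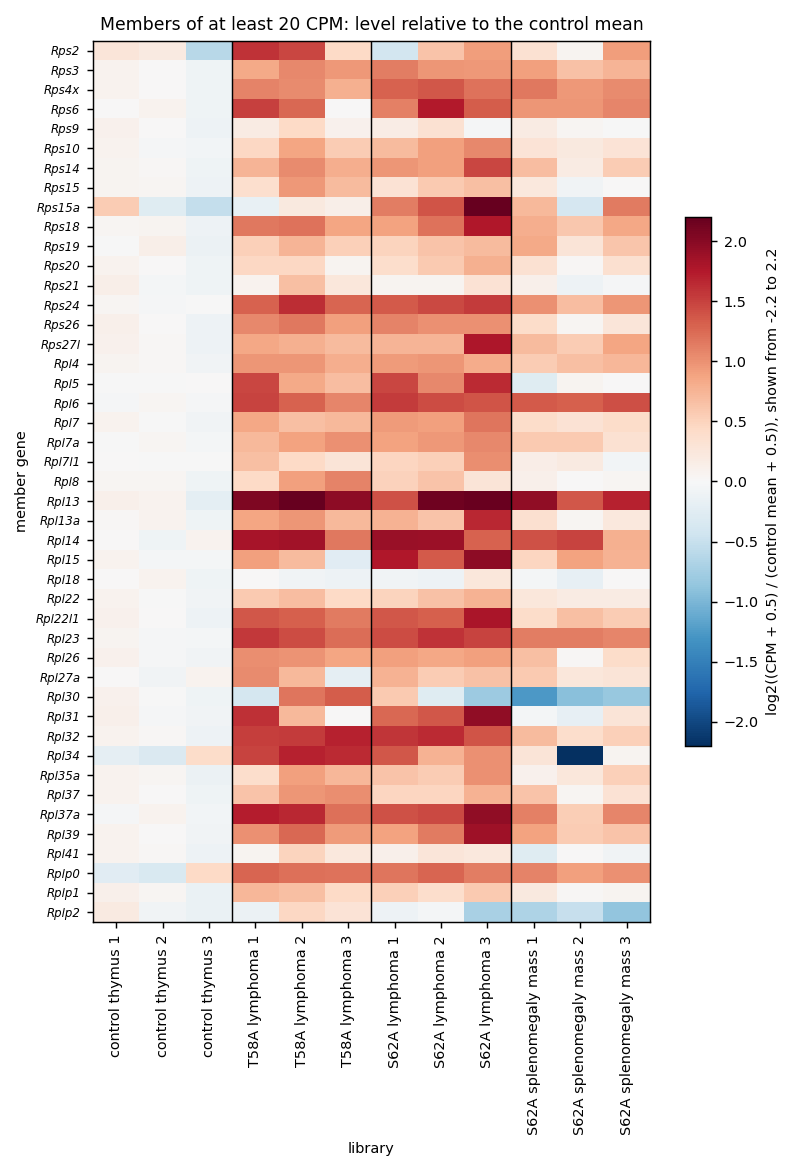
Log2 of the CPM of each library over the control mean (0.5 added to both, colour) for the members of at least 20 CPM described here, small subunit first, then large subunit and stalk. The 6 lymphoma columns are red for most members, the splenomegaly columns paler, and Rpl18, Rps9, Rps21 and Rpl41 stay near white throughout.

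Among small-subunit genes, Rps24, mutated in some human families with Diamond-Blackfan anaemia, went from 62.7 ± 1.53 CPM in controls to 167 ± 24.3 and 172 ± 11.1 CPM in the lymphomas and 117 ± 13.9 CPM in the masses. Its log2 fold changes (± SE, here and in what follows) were 1.42 ± 0.13 with T58A, 1.46 ± 0.13 with S62A and 0.90 ± 0.13 in the masses, an order kept for later genes.

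Rps4x, the X-linked gene of protein S4, rose in the masses as well as in the lymphomas, with log2 fold changes of 0.98 ± 0.12 (T58A), 1.29 ± 0.12 (S62A) and 1.05 ± 0.12 (masses). It read 124 to 140 CPM in the controls and 228 to 344 CPM in the other 9 libraries. Rps18, a protein of the small-subunit head, read 83.3 to 93.8 CPM in controls, 164 to 306 CPM in the lymphomas and 136 to 162 CPM in the masses, and was higher in all 3 comparisons (1.09 ± 0.20, 1.33 ± 0.20 and 0.75 ± 0.20). Rps3, which lies where the messenger RNA enters, went from 1010 to 1140 CPM in controls to 1690 to 2364 CPM in the other 9 libraries, with 0.95 ± 0.12, 1.02 ± 0.13 and 0.77 ± 0.12.

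Rps14, whose loss underlies the anaemia of the human 5q- syndrome, rose by a log2 of 0.87 ± 0.18 with T58A (adjusted p = 0.00374) and 1.13 ± 0.18 with S62A (0.000639). Its rise in the masses, 0.49 ± 0.18 (0.0416), was lost in 5 of the 6 fits that left out 1 library (adjusted p 0.0672 to 0.126). Rps19, the gene most often mutated in Diamond-Blackfan anaemia in humans, rose by nearly the same amount in the 3 groups, 0.62 ± 0.17, 0.62 ± 0.17 and 0.61 ± 0.17. Without control 3 all 3 of these calls were lost (adjusted p 0.0624, 0.0512 and 0.0505). The T58A call was also lost without control 1 (0.0546) and without T58A lymphoma 2 (0.0512).

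Rps6, the substrate of S6 kinase, showed 1 library apart. It read 13.9, 14.7 and 13.0 CPM in the controls, 40.0, 33.8 and 13.9 CPM in T58A lymphomas, 30.4, 47.9 and 35.7 CPM in S62A lymphomas and 27.8, 27.8 and 29.9 CPM in the masses. T58A lymphoma 3 sat among the controls, and the other 8 libraries of the 3 groups lay well above them. The log2 fold changes were 1.08 ± 0.32 (adjusted p = 0.0219), 1.45 ± 0.32 (0.00422) and 1.04 ± 0.32 (0.0191). The T58A call was lost in 5 of the 6 fits that left out 1 library (0.0572 to 0.09), and that of the masses without control 1 (0.0561) or control 3 (0.0621).

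Rps27a, which is made as a fusion with ubiquitin, had few reads and read 2.43 to 3.15 CPM in controls and 0.69 to 3.37 CPM elsewhere. It passed no test.

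Of the large-subunit genes, Rpl13 showed the largest log2 fold change against controls among members of at least 20 CPM in all 3 groups. It read 21.5, 21.1 and 17.1 CPM in the controls, 84.2, 99.2 and 79.8 CPM in T58A lymphomas, 53.6, 89.0 and 91.9 CPM in S62A lymphomas and 78.5, 52.4 and 65.5 CPM in the masses. The controls lay far below all other libraries, and the changes were 2.14 ± 0.22 (adjusted p = 6.17e-05), 1.97 ± 0.22 (7.14e-05) and 1.72 ± 0.22 (0.000111). Of the 50-base words of its transcript, 19.7% occur in no other annotated gene, so its reads could be confused with those of copies elsewhere. Rpl14 read 81.2 to 91.6 CPM in controls, 193 to 326 CPM in the lymphomas and 150 to 243 CPM in the masses, a change of 1.64 ± 0.24, 1.73 ± 0.24 and 1.26 ± 0.24.

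Rpl6 and Rpl23 rose in all 3 groups. Rpl6 read 49.2 to 52.0 CPM in controls and 106 to 146 CPM in the other 9 libraries, with changes of 1.30 ± 0.12, 1.46 ± 0.12 and 1.37 ± 0.12. Rpl23, 1 of the proteins that can bind the p53 regulator MDM2, read 108 to 116 CPM in controls, 262 to 337 CPM in the lymphomas and 234 to 243 CPM in the masses, with 1.42 ± 0.11, 1.51 ± 0.11 and 1.11 ± 0.11. For Rpl6 the masses did not differ from S62A lymphomas beyond the error (-0.09 ± 0.11, adjusted p = 0.517), and for Rpl23 they were lower (-0.40 ± 0.11, 0.00756).

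Rpl32 and Rpl37a rose more in the lymphomas than in the masses. Rpl32 read 333, 319 and 291 CPM in the controls, 904, 912 and 1024 CPM in T58A lymphomas, 940, 979 and 822 CPM in S62A lymphomas and 513, 413 and 452 CPM in the masses. The 4 groups fell into 3 levels, with the lymphoma types together at the top. The change was 1.59 ± 0.13 and 1.54 ± 0.13 in the lymphomas, 0.55 ± 0.12 in the masses and -0.99 ± 0.13 between masses and S62A lymphomas (adjusted p = 8.52e-05). Rpl37a went from 14.7 to 16.1 CPM in controls to 36.1 to 60.8 CPM in the lymphomas and 22.4 to 33.6 CPM in the masses, with 1.58 ± 0.22, 1.66 ± 0.22 and 0.95 ± 0.22.

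Rpl4 and Rpl8 were the large-subunit genes with the most reads. Rpl4 read 1251 to 1372 CPM in controls, 2298 to 2600 CPM in the lymphomas and 1947 to 2204 CPM in the masses, and rose by 0.91 ± 0.12, 0.91 ± 0.12 and 0.65 ± 0.12. Rpl8, which had the highest level per length of all members (2699 FPKM on average), rose by 0.83 ± 0.17 with T58A (adjusted p = 0.00286). Its call with S62A (0.48 ± 0.16, 0.0334) was lost in 5 of the 6 fits that left out 1 library (0.067 to 0.105), and the change in the masses was 0.05 ± 0.16 (0.818).

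Rpl5 and Rpl11 form with 5S ribosomal RNA the particle that restrains MDM2 when ribosome assembly fails. Rpl5 read 27.8, 27.8 and 28.2 CPM in the controls, 78.2, 50.2 and 45.0 CPM in T58A lymphomas, 78.5, 58.8 and 88.6 CPM in S62A lymphomas and 23.2, 29.0 and 28.1 CPM in the masses. Every lymphoma was above every control, and the masses overlapped the controls. The changes were 1.05 ± 0.22 (adjusted p = 0.00348), 1.43 ± 0.22 (0.000457) and -0.06 ± 0.22 (0.829), and the masses were lower than S62A lymphomas by a log2 change of -1.49 ± 0.22 (0.000224). Rpl11 had 0.17 to 0.39 CPM in controls and 0.65 to 2.66 CPM in the lymphomas. It was called higher with T58A (2.74 ± 0.65, 0.00784) and with S62A (1.75 ± 0.65, 0.0473), the latter lost in 4 of the 6 fits that left out 1 library (0.0863 to 0.2), and read 0.32 to 0.85 CPM in the masses (0.80 ± 0.66, 0.332).

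The stalk of the large subunit, built on Rplp0 with dimers of Rplp1 and Rplp2, recruits translation factors, and its 3 genes differed in their calls. Rplp0 read 404, 383 and 655 CPM in the controls and 902 to 1174 CPM in the other 9 libraries, with changes of 1.23 ± 0.18, 1.20 ± 0.18 and 1.0 ± 0.18. Control 3 was above the other controls and still below every other library. Rplp1 (660 to 789 CPM in controls) rose by 0.62 ± 0.13 and 0.50 ± 0.13 in the lymphomas and changed by 0.11 ± 0.12 in the masses, the last not past the threshold (adjusted p = 0.504).

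Rplp2 read 249, 207 and 197 CPM in the controls, 200, 300 and 268 CPM in T58A lymphomas, 203, 211 and 133 CPM in S62A lymphomas and 136, 152 and 119 CPM in the masses. Controls and lymphomas overlapped, and the masses were all below the controls. It was called lower in the masses (-0.68 ± 0.20, adjusted p = 0.0156), a call lost without control 1 (0.0629), mass 1 (0.0551) or mass 3 (0.0848), and did not pass in the lymphomas (0.23 ± 0.20 and -0.26 ± 0.20). The other member called lower in the masses was Rpl36 (-1.81 ± 0.68, adjusted p = 0.0465), at 0.28 to 0.65 CPM in controls and 0.07 to 0.21 CPM in the masses, and its call was lost in each of the 6 fits that left out 1 library (0.0521 to 0.159).

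**Figure D3:**
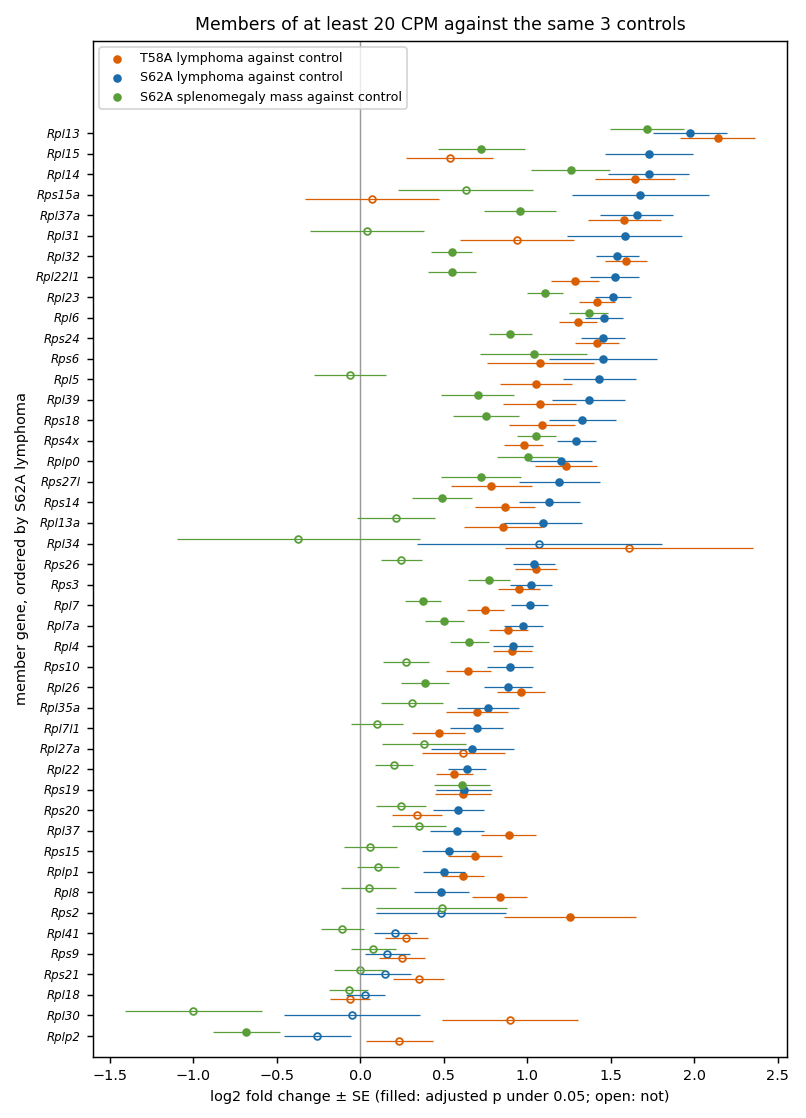
Log2 fold change ± SE of the members of at least 20 CPM described here against the same 3 controls, ordered by the S62A lymphoma value; filled points passed the adjusted p threshold of 0.05. Rpl13, Rpl14, Rpl23 and Rpl6 lie to the right in all 3 comparisons, while the green points of Rpl5 and Rpl31 lie near 0 and that of Rplp2 lies below it.

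In all, 6 members of at least 20 CPM were called in no comparison with controls: Rpl18, Rpl30, Rpl34, Rpl41, Rps9 and Rps21. For Rpl18 the libraries spanned 132 to 179 CPM over all 4 groups, and the changes were -0.06 ± 0.12, 0.03 ± 0.12 and -0.07 ± 0.12. Rps9, at 1545 FPKM on average an abundant member, changed by 0.25 ± 0.14, 0.16 ± 0.14 and 0.08 ± 0.14, and Rps21 by 0.35 ± 0.15, 0.15 ± 0.15 and 0.00 ± 0.15. Their errors were no larger than those of members that rose.

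In Rpl34 and Rpl30 the spread between libraries was wide instead. Rpl34 read 131, 121 and 200 CPM in the controls, 423, 485 and 471 CPM in T58A lymphomas, 390, 255 and 304 CPM in S62A lymphomas and 184, 6.62 and 158 CPM in the masses. All lymphomas lay above all controls, but mass 2 was far below every other library, and the SE was 0.73 to 0.74, so that the T58A change of 1.61 did not pass (adjusted p = 0.111). Rpl30 read 142, 131 and 124 CPM in the controls, 102, 302 and 337 CPM in T58A lymphomas, 198, 110 and 75.7 CPM in S62A lymphomas and 55.2, 69.7 and 74.1 CPM in the masses. The masses lay below the controls (-1.0 ± 0.41, adjusted p = 0.0635), and the lymphomas spread to both sides of them.

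Rpl29 was split within 3 of the groups. It read 18.5, 15.9 and 5.28 CPM in the controls, 21.0, 1.92 and 3.34 CPM in T58A lymphomas, 19.0, 17.7 and 20.8 CPM in S62A lymphomas and 1.59, 12.5 and 2.74 CPM in the masses. High and low libraries occurred side by side in all groups but S62A lymphoma, and it passed no test. Rpsa, the laminin receptor homologue of the small subunit, read 0.72, 0.61 and 3.47 CPM in the controls, 13.4, 14.7 and 1.32 CPM in T58A lymphomas, 20.2, 10.9 and 16.2 CPM in S62A lymphomas and 11.7, 13.7 and 2.11 CPM in the masses. T58A lymphoma 3 and mass 3 were within the range of the controls. It was called higher with S62A (3.28 ± 0.97, adjusted p = 0.018) and in the masses (2.49 ± 0.95, 0.0469). The first call was lost without control 1 (0.0681) or control 2 (0.0671), and the second in 4 of the 6 fits that left out 1 library (0.102 to 0.142).

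The 1 member called lower in the lymphomas was Rps4l (chr6:148303178-148304118 on mm9), a gene related to Rps4x that the files list with a non-coding RefSeq identifier. It read 10.7, 11.9 and 11.8 CPM in the controls, 2.83, 4.90 and 2.59 CPM in T58A lymphomas, 1.08, 1.44 and 2.47 CPM in S62A lymphomas and 8.54, 4.73 and 4.14 CPM in the masses. Controls were highest and S62A lymphomas lowest, with the masses between. The changes were -1.73 ± 0.41 (adjusted p = 0.00787) with T58A and -2.78 ± 0.43 (0.000543) with S62A. They were called in every fit that left out 1 library. In the masses the change was -0.97 ± 0.40 (0.0662).

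**Figure D4:**
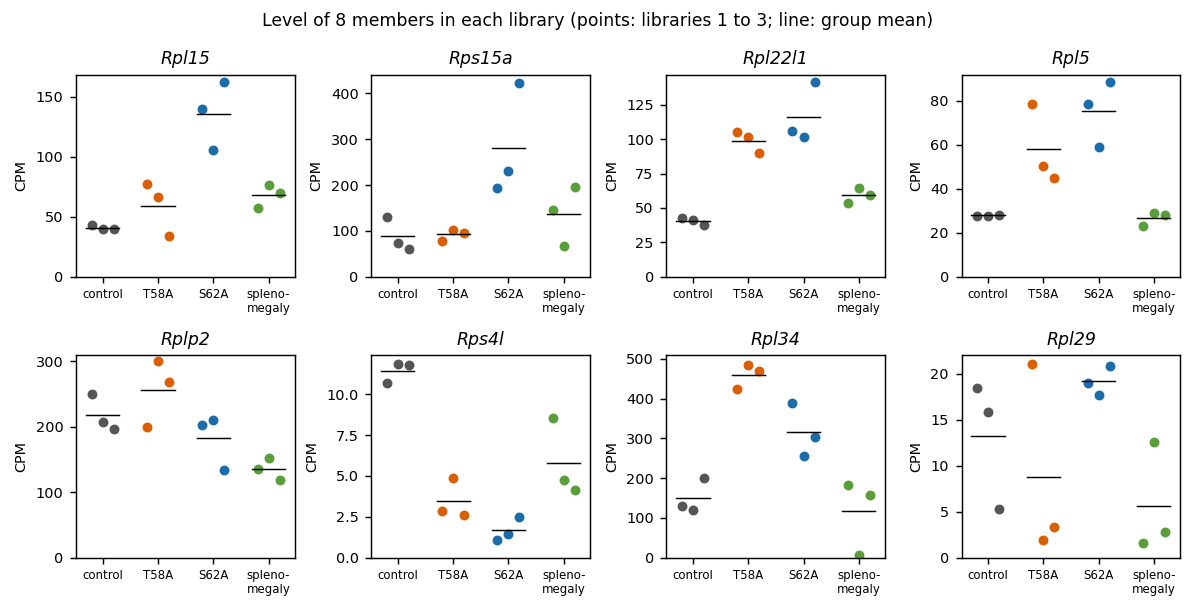
CPM of 8 members in each library (points, libraries 1 to 3 from left to right in each group; line, group mean; each axis starts at 0). Rpl15 and Rps15a are highest in S62A lymphomas, Rps4l in controls, and 1 mass library of Rpl34 lies apart from the rest of its group. Rpl29 has high and low libraries side by side in all groups but S62A lymphoma.

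Few genes of any kind were called between S62A and T58A lymphomas in the edgeR fit, and the members were no exception. Of the 78 members 1 (1.28%) was called higher with S62A and 0 lower, where 0.859% and 2.29% of all genes were called. The median log2 difference was 0.08, against -0.01 over all genes, and it was -0.00 with limma on log2(FPKM + 0.1). At an adjusted p under 0.05, DESeq2 called 2 members higher (Rpl15 and Rps15a) and 0 lower, where it called 3.95% and 7.29% of all genes. At an unadjusted p under 0.05 edgeR had 4 members higher and 3 lower, where 10% and 13.4% of all genes were so. In 7 members every S62A library lay above every T58A library, and 10% of all genes showed this.

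The member called was Rpl15, a large-subunit gene mutated in some human patients with Diamond-Blackfan anaemia. It read 43.4, 40.0 and 39.6 CPM in the controls, 77.3, 66.5 and 34.3 CPM in T58A lymphomas, 140, 106 and 162 CPM in S62A lymphomas and 57.2, 76.3 and 69.9 CPM in the masses. The S62A lymphomas did not overlap any other group, and T58A lymphoma 3 was below the controls. The difference between the lymphomas was 1.20 ± 0.26 (adjusted p = 0.0365). It was not called when only those 2 groups were fitted (0.242), where 0 of all genes were called, nor without T58A lymphoma 2 (0.0865), S62A lymphoma 1 (0.0623) or S62A lymphoma 3 (0.0743). Against controls Rpl15 rose by 1.73 ± 0.26 with S62A (0.00047), changed by 0.54 ± 0.26 with T58A (0.127), and rose by 0.73 ± 0.26 in the masses (0.0371), a call lost in 5 of the 6 fits that left out 1 library (0.0596 to 0.109).

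Rps15a, a small-subunit gene, had a larger difference and a wider spread. It read 130, 73.6 and 61.4 CPM in the controls, 78.9, 103 and 96.2 CPM in T58A lymphomas, 193, 230 and 423 CPM in S62A lymphomas and 145, 67.9 and 196 CPM in the masses. The S62A lymphomas were above all T58A lymphomas and all controls, and S62A lymphoma 3 was far above the other 2. The difference between lymphomas was 1.61 ± 0.41 (adjusted p = 0.0586), and that from controls 1.68 ± 0.41 with S62A (0.00727) and 0.07 ± 0.40 with T58A (0.906). Rps2, near the decoding site, leaned the other way: it rose with T58A (1.26 ± 0.40, 0.0288), a call lost in 5 of the 6 fits that left out 1 library (0.0517 to 0.106), while S62A gave 0.48 ± 0.39 (0.339), and the difference between them was -0.77 ± 0.39 (0.262).

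Some low members were highest in S62A lymphoma 1. Rps7 read 21.2 CPM there, against 9.84 and 7.07 CPM in the other S62A lymphomas, 6.76 to 8.80 CPM in T58A lymphomas and 4.79 to 5.26 CPM in controls. Rpl32l read 17.4 CPM there, against 7.11 and 5.0, 5.06 to 7.22 and 2.68 to 3.99 CPM. Without that library the call of Rps7 (1.36 ± 0.43, adjusted p = 0.0245) and that of Rpl32l (1.47 ± 0.49, 0.032) against controls were both lost (0.122 and 0.176). Both were also lost without any 1 of the controls, with an adjusted p of 0.063 to 0.0741 for Rps7 and 0.0686 to 0.111 for Rpl32l.

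The masses and the S62A lymphomas share the S62A mutant, and more ribosomal protein genes were called lower than higher in the masses. Of the 78 members 29 were called lower and 1 higher, where 28.6% of all genes were called lower and 25.6% higher. The median log2 difference was -0.47, against -0.07 over all genes. Every mass lay below every S62A lymphoma in 42 members, and 30.2% of all genes showed this. Of the 49 tested large-subunit genes 21 were lower, and of the 29 small-subunit genes 8. A fit of these 2 groups alone tested 72 members and called 13 lower, which is 18.1% of them against 22.6% of all genes, where the fit of all libraries called 37.2% of the members. The 10 proliferation markers summed to 2304 to 3327 CPM in S62A lymphomas and 1233 to 1818 CPM in the masses. They summed to 2733 to 2940 CPM in controls and 2181 to 2423 CPM in T58A lymphomas. Against controls 1 marker was called higher and 3 lower with T58A, 2 and 1 with S62A, and 0 and 9 in the masses. Myc was lower in the masses than in S62A lymphomas as well (-0.91 ± 0.13, adjusted p = 0.000172). The part of these markers and of Myc in the result was not tested.

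Among members of at least 20 CPM, Rpl31 and Rpl5 had the largest log2 differences between masses and S62A lymphomas. Rpl31 read 22.4, 20.3 and 19.6 CPM in the controls, 64.3, 34.1 and 20.9 CPM in T58A lymphomas, 50.8, 54.4 and 81.2 CPM in S62A lymphomas and 20.2, 18.3 and 25.5 CPM in the masses. The masses and the controls overlapped, and the S62A lymphomas lay above both. The masses were lower than S62A lymphomas by a log2 change of -1.54 ± 0.35 (adjusted p = 0.00313). Rpl15 was lower too (-1.0 ± 0.26, 0.007), and the call of Rps15a (-1.05 ± 0.41, 0.0467) was lost in 4 of the 6 fits that left out 1 library (0.0528 to 0.2).

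Rps4l was the 1 member higher in the masses than in S62A lymphomas, by 1.81 ± 0.43 (adjusted p = 0.00414). Some members were not called there, with Rps4x at -0.24 ± 0.12 (0.0989) and Rps19 at -0.01 ± 0.17 (0.957).

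For 6 pairs, a ribosomal protein gene and a closely related gene were set side by side as the log2 ratio of their CPM (0.5 added to each) within a library, which scaling of libraries hardly changes. Rpl22 is an RNA-binding protein of the large subunit that mouse alpha-beta T cells need to develop, and in mice it holds down its paralog Rpl22l1. The ratio of Rpl22l1 to Rpl22 was -2.91, -2.90 and -2.96 in controls, -2.13, -2.28 and -2.22 in T58A lymphomas, -2.03, -2.25 and -1.90 in S62A lymphomas and -2.77, -2.44 and -2.54 in the masses. Every library of the other groups lay above the controls. The mean ratio was higher than in controls by 0.71 with T58A, 0.86 with S62A and 0.34 in the masses, and each of the 3 gave p = 0.1 in a two-sided exact permutation test, the smallest that 3 against 3 libraries allow (0.231 adjusted over the 30 tests of these pairs).

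Both genes of that pair rose in the lymphomas. Rpl22 (chr4:151699835-151708191 on mm9) read 295 to 327 CPM in controls, 420 to 530 CPM in the lymphomas and 350 to 368 CPM in the masses, with changes of 0.56 ± 0.11, 0.64 ± 0.11 and 0.20 ± 0.11, the last not past the threshold (adjusted p = 0.153). Rpl22l1 (chr3:28704433-28706337) read 43.0, 41.0 and 37.5 CPM in the controls, 89.7 to 105 CPM in T58A lymphomas, 106, 102 and 142 CPM in S62A lymphomas and 53.6, 64.6 and 59.6 CPM in the masses. It rose in all 3 comparisons, by 1.29 ± 0.15, 1.52 ± 0.15 and 0.55 ± 0.14, and fell between S62A lymphomas and masses (-0.97 ± 0.14, 0.000242). Of the 50-base words of the Rpl22l1 transcript 34.4% occur in no other annotated gene, and of Rpl22 94.8%.

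The other pairs did not all move alike. Rpl7l1, a nucleolar relative of Rpl7, had a mean ratio to Rpl7 of -0.40 in controls and -0.69, -0.74 and -0.69 in T58A lymphomas, S62A lymphomas and masses, lower in every library than in any control (exact permutation p = 0.1 each, 0.231 adjusted). Rpl7 itself rose by 0.75 ± 0.11, 1.01 ± 0.11 and 0.38 ± 0.11, the last lost without control 2 (adjusted p = 0.0528) or control 3 (0.064). Rpl7l1 rose by 0.47 ± 0.16 with T58A, lost in 5 of the 6 fits that left out 1 library (0.0658 to 0.128), and by 0.70 ± 0.16 with S62A, and gave 0.10 ± 0.16 in the masses. Rps27l, related to Rps27 and a p53 target in human cells, rose by 0.79 ± 0.24, 1.19 ± 0.24 and 0.72 ± 0.24. The first call was lost in 5 and the third in 4 of the 6 fits that left out 1 library (0.0524 to 0.0844 and 0.0571 to 0.0878). Rps27, at 1.27 to 4.26 CPM, passed no test. The mean ratio of Rps27l to Rps27 was 4.62 in controls and 5.36, 5.54 and 5.21 in T58A lymphomas, S62A lymphomas and masses. It was higher than in controls in each, as for Rpl22l1 to Rpl22, but the libraries of each group overlapped the controls. The exact permutation p was 0.2, 0.3 and 0.3 (0.4, 0.474 and 0.474 adjusted).

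Rpl39 and its testis-enriched relative Rpl39l were far apart. Rpl39 read 118 to 132 CPM in controls, 233 to 459 CPM in the lymphomas and 186 to 232 CPM in the masses, and rose by 1.07 ± 0.22, 1.37 ± 0.22 and 0.70 ± 0.22. The last call was lost without control 2, control 3 or mass 1 (adjusted p 0.0519 to 0.0665). Rpl39l had 37 reads in all 12 libraries together. Rpl10l, also testis-enriched, had 2 reads and the muscle gene Rpl3l 128, while their partners Rpl10 and Rpl3 had only 173 and 208. Rpl10 passed no test, and Rpl3 was called lower in masses than in S62A lymphomas (-1.62 ± 0.61, adjusted p = 0.0419), a call lost in 5 of the 6 fits that left out 1 library (0.064 to 0.124).

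Levels of the members spanned a wide range. A ribosome holds its proteins in matched amounts, yet the mean FPKM over the libraries ran from 0.00957 for Rpl10l and 0.42 for Rps29 to 2699 for Rpl8, and Rpl3, Rpl10, Rpl24, Rps13, Rps28 and Rps29, all parts of every ribosome, had few reads. Of the members 12 had at most 120 reads over all libraries, 18 had more, up to 1200, and 11 had more than 120000. Counted by library, 9 members were at 0 reads in at least 1 library. Ribosomal protein genes have many near-identical pseudogene copies in the mouse genome, and the treatment of reads with several matches is not stated in the sources.

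The sharing of sequence was measured as the share of 50-base words of a member's transcript found in no other gene of the GENCODE M21 annotation. Members of at least 20 CPM had a median of 59.9% (6.16% to 100%), and those below 20 CPM 36.8% (4.91% to 100%). Of the 21 members with at most 25% of such words 14 were below 20 CPM, and their median FPKM was 2.44. For the 24 members between 50% and 75% the median was 208 FPKM and for the 14 above 75% 140 FPKM. All members share the same libraries, and Rps29, with 64.2% of such words, had 23 reads in all. Among the 38 members with at least 50% of such words, 35 were tested: 20 were higher and 1 lower with T58A, 25 and 1 with S62A, 13 and 1 in the masses, and 1 was higher and 12 lower in masses than in S62A lymphomas. The shares higher against controls were 57.1%, 71.4% and 37.1%, where 18.8%, 21.9% and 22.9% of all genes were higher. Between masses and S62A lymphomas 28.6% of all genes were lower.

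**Figure D5:**
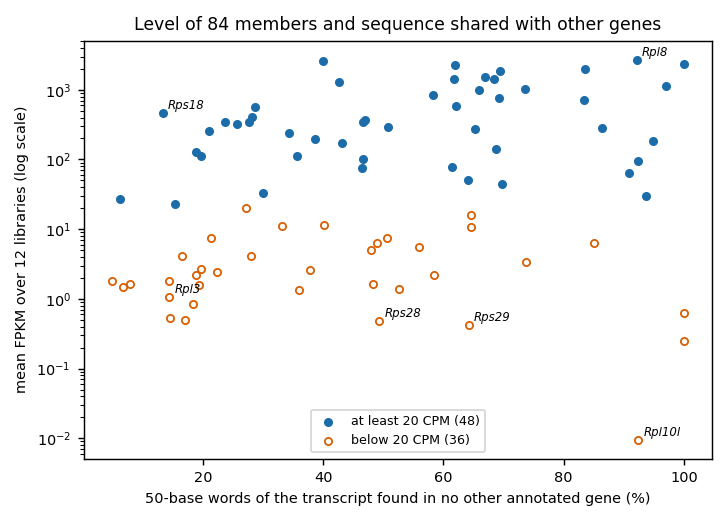
Mean FPKM over the 12 libraries (log axis) of the 84 members against the share of 50-base words of their transcript found in no other annotated gene (%). Members below 20 CPM (open, 36) are frequent at the left, where Rpl3 lies, and also occur at the right, where Rps29 and Rpl10l lie.

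Genes that work beside the ribosomal proteins moved in the same comparisons. Of 17 genes of elongation factors and other TOP messenger RNAs, 14 were higher with T58A, 13 with S62A and 9 in the masses, and 0 were lower in each. Pabpc1, the poly(A)-binding protein, rose from 349 ± 22.1 to 1080 ± 180 CPM with S62A and 672 ± 34.5 CPM in the masses. Of 18 genes for late subunit assembly and export, 13, 13 and 6 were higher and 0, 0 and 1 lower, with Rpf2, which helps place the 5S particle, rising by 1.69 ± 0.14 with T58A and 1.5 ± 0.14 with S62A. Of all 15606 tested genes 18.8%, 21.9% and 22.9% were higher against controls in that order, and 17.4%, 22.2% and 26.3% lower. Between masses and S62A lymphomas 10 of the 17 and 13 of the 18 were lower and 0 higher. Of all genes 28.6% were lower there and 25.6% higher.

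The mitochondrial ribosome, a separate machine with its own proteins, gave another count. Of 75 tested genes for its proteins 24 were higher and 4 lower with T58A, 23 and 4 with S62A, and 6 and 13 in the masses, with medians of 0.25, 0.19 and -0.14. The shares higher were 32.0%, 30.7% and 8.0%, against 18.8%, 21.9% and 22.9% of all genes. Of all genes 17.4%, 22.2% and 26.3% were lower, and their medians were 0.01, 0.00 and -0.08. Mrpl1 rose by 1.38 ± 0.17 with T58A, and Mrps6 fell by 0.91 ± 0.14 on the log2 scale in the masses. Of 4 tested ribosomal protein genes with other names, Rack1 rose in both lymphomas (0.44 ± 0.13 and 0.67 ± 0.13) and Rpl36al with T58A (0.50 ± 0.17) and in the masses (1.09 ± 0.17). No others of the 4 were called against controls, and the medians were 0.465 (T58A), -0.168 (S62A) and 0.503 (masses). Between masses and S62A lymphomas Rpl36al was higher (0.66 ± 0.17) and Rack1 lower (-0.45 ± 0.13) in the masses.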

How the data were processed

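Poly(A) RNA of 12 mouse thymic libraries, 3 in each of 4 groups taken from the titles, was sequenced with a directional kit. The authors deposited, for each transcript, a raw read count and an FPKM value, per the file headers. Per the submitters' processing notes, bcl2fastq 2.20.0.422, Bowtie 1.0.0, DESeq2 and the mm9 build were used. How reads were assigned to genes, with or without strand and with several matches, is not stated in these notes, so near-identical copies could take or lose reads of a member.

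Counts were tested with edgeR 4.0.16 (quasi-likelihood fit of all 12 libraries by group, TMM factors, filterByExpr with a minimum count of 10, Benjamini-Hochberg adjustment over 15606 genes, threshold 0.05) and checked on simulated data. Alternatives were DESeq2 1.42.0, limma 3.58.1 on log2(FPKM + 1) and log2(FPKM + 0.1), other scalings and filters, and leaving out each library. CPM used library sizes scaled by TMM. Positions on mm9 assume starts counted from 0 in the files. Promoters are RefSeq's on GRCm38.p6. Members, marker and pathway lists, and the rule for named genes were chosen with earlier results of these data known. The rule takes, per comparison, the 5 largest called rises and falls among members of at least 20 CPM in either group, the stalk, 5S and paralog genes, Rpsa, Rps6, Rps4x, Rps14, Rps19 and Rps27a, the 3 highest and 3 lowest members by FPKM, and of each other list the 2 risen and 2 fallen genes with the smallest adjusted p. Rpl4, Rpl18, Rpl29, Rpl30, Rpl32l, Rpl34, Rpl36, Rpl41, Rps2, Rps3, Rps4l, Rps7, Rps9, Rps18, Rps21 and Rps24, which the rule does not take, were chosen after their values were seen. Counts cover all members, and many members are not reported singly here. Some of these, such as Rpl13a, Rpl26 and Rps26, were called higher in both lymphomas.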

Additional observations from a re-analysis of the deposited data

Results flagged for a closer look

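Rpl15 was the 1 ribosomal protein gene that differed between the lymphoma types in the edgeR test of that difference. It was higher in S62A than in T58A lymphomas by a log2 change of 1.2, and higher in each of the 3 S62A libraries than in each of the 3 T58A libraries. The adjusted p was 0.0365, and over the alternatives it ran from 0.000897 with DESeq2 to 0.242 when only those 2 groups were fitted. The title letters of the lymphoma types differ, and their part in the result cannot be told apart from that of the mutants.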

How the results depend on the processing

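No paired analysis was possible because replicate numbers follow only the order of deposit. No called value of a gene taken by the naming rule changed sign in the alternatives run. Values with no call did in 6 of the paralog ratio differences when 1 library was left out: Rps27l to Rps27 between S62A and T58A lymphomas (-0.296 to 0.629) and between masses and S62A lymphomas (-0.778 to 0.147), Rpl3l to Rpl3 for T58A (-0.118 to 0.294) and the masses (-0.347 to 0.0518) against controls, and Rpl7l1 to Rpl7 between S62A and T58A lymphomas (-0.139 to 0.0177) and between masses and S62A lymphomas (-0.0227 to 0.146). The member median between S62A and T58A lymphomas went from 0.08 to -0.000641 with limma on log2(FPKM + 0.1). The rule gave 79 genes and comparisons, counting called genes and, in each comparison, Myc. For these 1286 alternative values were computed, of which 1146 stayed on the same side of the threshold and 140 lost the call. The genes chosen after their values were seen are not in these totals. With 1 library left out in turn, members higher numbered 32 to 45 with T58A, 38 to 47 with S62A and 18 to 26 in the splenomegaly masses (0 to 1 lower). Between S62A and T58A lymphomas 0 to 2 were higher and 0 to 1 lower, and between masses and S62A lymphomas 21 to 30 were lower. Of all genes, those fits called 12.4% to 16.2%, 15.2% to 19.9% and 16.9% to 21.0% higher against controls. Between masses and S62A lymphomas they called 22.9% to 26.9% of all genes lower. Within title letter H, 5 were higher and 0 lower with T58A. Restricting members to those with at least 50% unshared words, chosen after seeing the data, left 20, 25 and 13 higher against controls, 1 lower in the masses, and 12 lower between masses and S62A lymphomas. Restricting to at least 20 CPM, also chosen after seeing the data, left 0 lower with T58A or S62A, 1 lower in the masses, and 0 higher between masses and S62A lymphomas. Members lower in the masses numbered 4 with library size only or limma on log2(FPKM + 0.1), and 1 with upper-quartile factors or no filter. Fitting only the groups compared gave 0 higher between S62A and T58A lymphomas and 13 lower between masses and S62A lymphomas (18.1% of members, 22.6% of all genes), and DESeq2 gave 2 higher in the former. As a share of summed FPKM, the log2 ratio was 0.72 for T58A, 0.0847 for the masses and -0.60 between masses and S62A lymphomas, against 0.82, 0.30 and -0.44 as a share of reads. The ratio of Rpl3l to Rpl3 with FPKM + 0.1 differed by -2.04 (S62A against controls), -2.11 (S62A against T58A) and 1.61 (masses against S62A), against -1.31, -1.39 and 1.15. For these the cause was not tested, apart from the smaller number of libraries or members by construction. The 36 members below 20 CPM had fewer reads and fewer calls; the part of depth in this was not tested.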
